A study of Mus musculus with 4 samples.

Results

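The TRIM (tripartite motif) gene family was examined for occupancy by MED1, a subunit of the Mediator complex, in RAW 264.7 cells, a transformed mouse macrophage-like line. Members were the RefSeq protein-coding genes of mm10 whose symbol is Trim followed by a digit, 68 of 21887 protein-coding genes. MED1 ChIP-seq had been done on cells stimulated for 2 h with lipopolysaccharide (LPS, 2 libraries) and on untreated cells (2 libraries). The sample labels give 10 ng/mL LPS and the treatment protocol 100 ng/mL. The deposited list, a file of the whole series, holds interval positions with no height, significance, library or condition, so stimulated and untreated cells could not be compared. What follows compares genes within that list, and whether an interval reflects occupancy or background could not be told apart. Abutting intervals were joined into 22570 regions. A gene is called covered here when any base of a region lay within 1 kb of either gene end.

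TRIM proteins typically carry a RING domain that transfers ubiquitin, B-boxes and a coiled coil, followed by a variable carboxy-terminal part that binds the target. Many act in innate immunity, where they tag or bind sensors, adaptors and viral components, and several are induced by interferon in macrophages. Others are chromatin cofactors, muscle ligases or regulators of neuronal and cytoskeletal proteins. Mediator bridges transcription factors and RNA polymerase II, and its subunits gather at active promoters and enhancers.

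RefSeq promoter windows (GRCm38.p6, 250 bases before to 50 after a transcription start) were listed for 53 members. The 8 printed here are shown because they hold the core of the interferon-stimulated response element, the sequence through which interferon-activated STAT and IRF factors act, while only some of them lay in a MED1 region. The inner window of Trim30a and a window of the uncovered gene Trim2 hold it too and are not printed. Capitals mark matches to GAAA, any 2 bases and GAAA, or to the reverse complement. All are written 5′ to 3′ on the gene's own strand. Trim30a (chr7:104465144-104465443, minus strand) lay in a region and Trim30d (chr7:104507800-104508099, minus strand) did not.
Trim30a: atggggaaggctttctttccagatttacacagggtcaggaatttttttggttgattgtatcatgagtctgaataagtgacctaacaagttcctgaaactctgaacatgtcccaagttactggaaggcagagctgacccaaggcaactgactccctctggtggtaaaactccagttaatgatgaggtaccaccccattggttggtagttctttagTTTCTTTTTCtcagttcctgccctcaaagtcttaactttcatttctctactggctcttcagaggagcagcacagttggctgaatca
Trim30d: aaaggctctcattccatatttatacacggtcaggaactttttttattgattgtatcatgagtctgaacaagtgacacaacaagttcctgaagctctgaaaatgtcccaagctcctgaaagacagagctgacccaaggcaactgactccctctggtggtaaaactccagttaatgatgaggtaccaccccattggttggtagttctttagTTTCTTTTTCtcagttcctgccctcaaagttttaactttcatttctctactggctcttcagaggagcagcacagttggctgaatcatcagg
Trim12c (chr7:104353300-104353599, minus strand) lay in a region, whereas its near copies Trim5 (chr7:104288057-104288356, minus strand) and Trim12a (chr7:104315446-104315745, minus strand) did not.
Trim12c: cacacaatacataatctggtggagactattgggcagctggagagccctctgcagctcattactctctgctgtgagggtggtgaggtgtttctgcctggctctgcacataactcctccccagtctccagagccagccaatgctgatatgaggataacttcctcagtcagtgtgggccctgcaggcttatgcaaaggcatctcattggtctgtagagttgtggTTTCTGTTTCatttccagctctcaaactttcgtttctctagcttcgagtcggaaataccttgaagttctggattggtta
Trim5: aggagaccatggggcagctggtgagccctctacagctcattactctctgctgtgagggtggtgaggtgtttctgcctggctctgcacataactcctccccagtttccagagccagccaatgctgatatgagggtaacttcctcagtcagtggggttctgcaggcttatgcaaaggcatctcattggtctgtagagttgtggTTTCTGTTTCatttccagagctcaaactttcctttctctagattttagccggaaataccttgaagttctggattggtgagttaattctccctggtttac
Trim12a: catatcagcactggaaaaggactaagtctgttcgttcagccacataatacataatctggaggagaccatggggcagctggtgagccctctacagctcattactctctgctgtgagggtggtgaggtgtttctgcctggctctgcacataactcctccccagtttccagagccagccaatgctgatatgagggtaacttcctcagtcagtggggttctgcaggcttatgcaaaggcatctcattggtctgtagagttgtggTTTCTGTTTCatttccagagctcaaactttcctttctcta
Trim34a (chr7:104244207-104244506, plus strand), Trim21 (chr7:102565433-102565732, minus strand) and Trim26 (chr17:36836896-36837195, plus strand) were overlapped as well.
Trim34a: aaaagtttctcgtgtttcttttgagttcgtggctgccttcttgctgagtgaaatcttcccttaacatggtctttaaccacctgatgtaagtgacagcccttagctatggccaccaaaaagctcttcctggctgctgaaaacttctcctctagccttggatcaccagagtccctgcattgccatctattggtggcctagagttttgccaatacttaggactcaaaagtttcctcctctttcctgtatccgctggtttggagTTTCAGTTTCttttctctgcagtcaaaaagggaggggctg
Trim21: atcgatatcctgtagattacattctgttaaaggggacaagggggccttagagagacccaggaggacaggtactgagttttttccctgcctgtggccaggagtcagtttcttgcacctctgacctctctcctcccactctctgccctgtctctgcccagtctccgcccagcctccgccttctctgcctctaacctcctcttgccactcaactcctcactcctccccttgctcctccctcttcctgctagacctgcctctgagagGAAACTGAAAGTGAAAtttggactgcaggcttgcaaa
Trim26: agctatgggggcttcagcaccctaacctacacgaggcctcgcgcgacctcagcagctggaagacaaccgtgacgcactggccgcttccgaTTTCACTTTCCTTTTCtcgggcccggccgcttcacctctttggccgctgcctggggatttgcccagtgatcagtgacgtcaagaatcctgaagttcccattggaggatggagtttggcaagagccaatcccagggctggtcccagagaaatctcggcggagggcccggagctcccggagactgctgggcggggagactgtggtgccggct

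MED1 regions lay at the ends of 34 of the 68 TRIM genes (50.0%, Wilson 95% interval 38.4 to 61.6%), and 34 had none there. The same criterion was met by 45.5% of all protein-coding genes (9969 of 21887), so as a family TRIM genes were covered about as often as genes in general. With single-interval regions left out, the order of the shares turned round, at 35.3% of TRIM genes and 39.2% of all genes. A strand was listed for 53 members. Among these, 26 had a region within 1 kb of the 5′ end (49.1%, against 44.4% of all genes with a listed strand) and 5 within 1 kb of the 3′ end (9.43%, against 9.48%). The 5 with a region at the 3′ end were Trim25, Trim39, Trim41, Trim46 and Trim56, and each had a region at the 5′ end too. A region at the 3′ end alone occurred in 0 of 53 members and in 2.11% of all genes. The members closest to the 1 kb limit were Trim66 and Trim67 on the inside, 846 and 751 bp from a region, and Trim50 and Trim30b on the outside, 1032 and 1343 bp away.

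Coverage was also counted at marker genes of cell types, listed with earlier results known. Such counts can reflect a macrophage type but cannot identify the line. All 10 macrophage markers listed for this purpose were covered, among them Spi1, Csf1r, Cd68 and Lyz2, with widest end regions of 2408 to 18962 bp. Of 10 markers of B cells, T cells, liver, muscle and neurons, 1 was covered, the B cell receptor gene Cd79a. Of all protein-coding genes, 45.5% were covered.

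Coverage is given by functional group. The groups are small and were drawn up with earlier results known, so their counts are a description. Each gene was placed in a single group, and the remaining genes are those left over, which does not exclude an innate role. All 4 genes of the TIF1 chromatin cofactors were covered, as were 16 of 23 genes of innate signalling and antiviral defence (69.6%), 4 of 8 neuronal and cytoskeletal genes, 10 of the 29 remaining genes (34.5%) and 0 of 4 striated muscle genes, beside 45.5% of all genes. The partner genes of TRIM proteins, also listed with results known, were covered in 16 of 16 cases. Among them, Ifih1, encoding the RNA sensor MDA5, had a 10909 bp region and Ddx58, encoding the RNA sensor RIG-I, a 5584 bp region. TRIM relatives outside the symbol rule were covered in 3 of 8 cases, namely Pml, Mefv and Rnf135. Mid1, Mid2, Triml1, Triml2 and Bspry were not.

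The 34 covered members had 43 regions at their ends, and no region served the ends of 2 members. Their median width was 2618 bp, with quartiles of 1557 and 3850 bp, compared with 2144 bp and quartiles of 1485 and 3228 bp for the 9252 regions at ends of all protein-coding genes. Widths ranged between 385 bp at Trim3 and 14428 bp at Trim25. A region of more than 1 interval lay at the ends of 24 members. Of the 43 regions, 25 were made of 3 intervals (58.1%, against 75.4% at all gene ends) and 14 of a single interval (32.6%, Wilson 95% interval 20.5 to 47.5%, against 19.0%). When regions within 500 bp were merged, single-interval regions made up 19.5% at TRIM gene ends and 17.0% at all gene ends. The 14 lay at Trim3, Trim8, Trim12c, Trim13, Trim21, Trim24, Trim25, Trim28, Trim30a, Trim30c, Trim44 and Trim67, where Trim13 and Trim44 had 2 each. What the number of intervals stands for is not given in the sources used here.

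**Figure D1:**
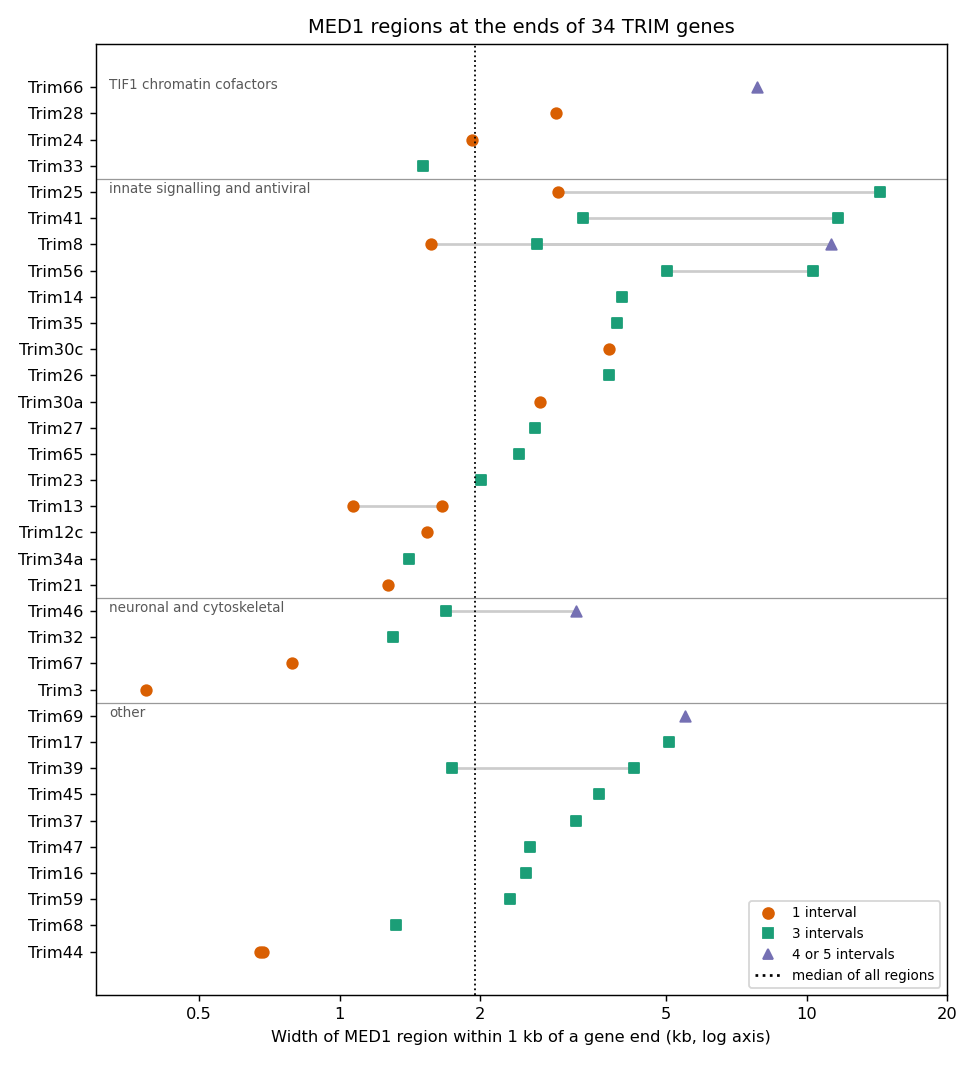
Width of each MED1 region within 1 kb of an end of the 34 covered TRIM genes (log axis, kb), by functional group, with symbols for the number of joined intervals and a dotted line at 1948 bp, the median of all regions. A grey line joins the regions of a gene. The 4 genes with a region above 10 kb are all in the innate group.

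Some of these regions also lay at an end of a gene outside the family, 12 of the 43 (27.9%, against 21.9% of regions at all gene ends that lay at ends of 2 or more genes). They were shared with Rack1 (Trim41), H2aw (Trim17), Mrpl38 (Trim65), Shld3 and Trappc13 (Trim23), Rpp21 (Trim39), Muc1 and Krtcap2 (Trim46), Coro2a (Trim14), Gm31649 (Trim28), Gm38525 (Trim12c), Arfip2 (Trim3), and Denn2b and Rpl27a (Trim66). To which gene such a region belongs cannot be told apart from its position. With such regions left out, 25 of the 68 members were covered (36.8%, against 30.3% of all genes).

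Regions of great width lay at a few innate genes. A region of 10 kb or more, a limit chosen after the widths were seen, lay at an end of Trim25, Trim41, Trim8 and Trim56. These 4 are 11.8% of the covered members (Wilson 95% interval 4.67 to 26.6%), and 4.0% of all covered genes had such a region. Because the limit was drawn from these same widths, that interval does not gauge the difference. Trim25 encodes the ligase that ubiquitinates RIG-I. Its 14428 bp region (chr11:88993270-89007697) spanned the 5′ end and 39.7% of the gene (chr11:88999403-89020294, plus strand), and was as wide as or wider than 99.2% of all regions. A second region of 2932 bp lay at its 3′ end, and 10 region midpoints lay within 50 kb.

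Trim41, a ligase that targets protein kinase C, had an 11675 bp region at its 3′ end (chr11:48797950-48809624), which also covered an end of Rack1, and a 3316 bp region at its 5′ end. Trim8, a regulator of cytokine and NF-kB signalling, had 3 regions at its ends. The widest, 11287 bp made of 5 intervals (chr19:46502243-46513529), lay wholly inside the gene and took up 74.5% of it. Trim56, a ligase linked to STING signalling, had a 10302 bp region at its 3′ end (chr5:137101847-137112148) and a 5034 bp region at its 5′ end that took up 70.4% of the gene.

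**Figure D2:**
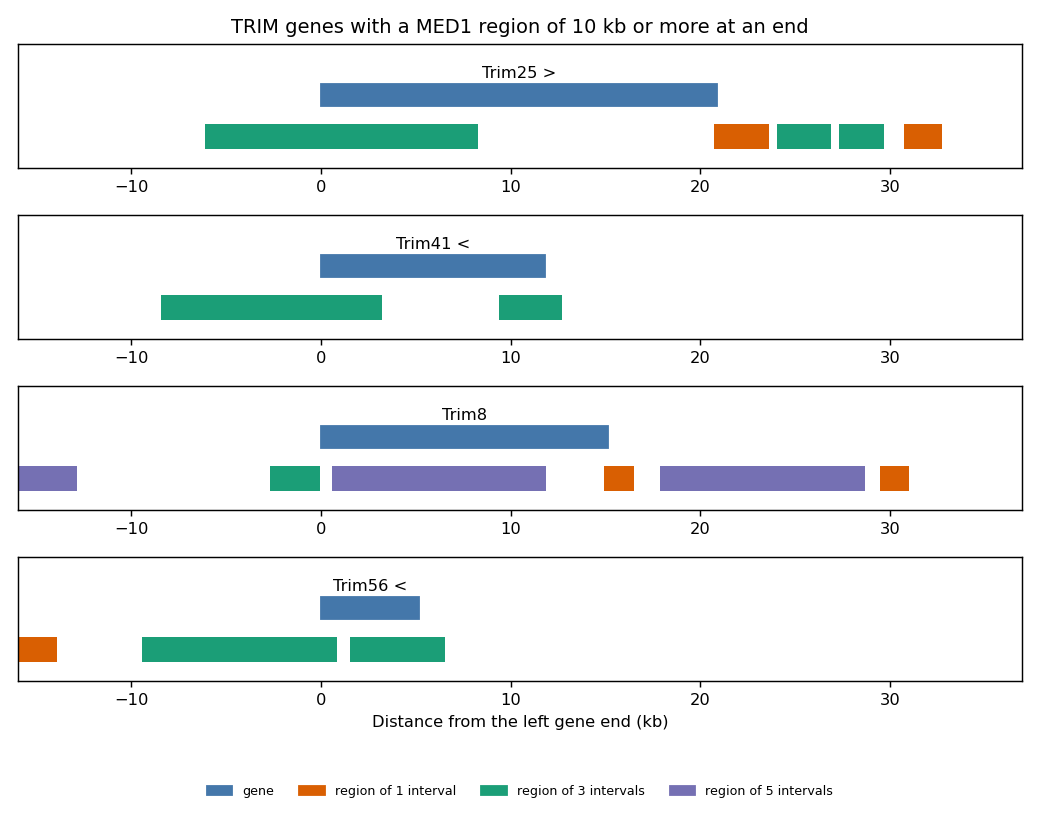
Map of the 4 TRIM genes with a MED1 region of 10 kb or more at an end, in kb from the left gene end. Arrowheads give the strand where listed. Blue bars are genes, and the bars under them are regions coloured by their number of intervals. The Trim25 region reaches over the 5′ end, those of Trim41 and Trim56 over the 3′ end, and that of Trim8 lies inside the gene.

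When regions at most 12.5 kb apart were stitched, end regions of 5 members fell into the largest 5% of 13554 clusters (5.02% of all protein-coding genes did). The cluster at Trim8 covered 39.5 kb in 8 regions and ranked 72. Those at Trim25, Trim69, Trim41 and Trim56 covered 24.5, 21.0, 18.6 and 17.3 kb. The Trim69 cluster includes a 13212 bp region at an end of B2m, and the Trim8 cluster regions of 6745 bp at Sufu and 10838 bp at Arl3. Trim69 was the member outside the innate group, with a 5502 bp region of 5 intervals at its 5′ end and a second region of 2268 bp inside the gene.

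Among other innate genes, Trim14, an adaptor of the mitochondrial antiviral complex, had a 4030 bp region that also covered an end of Coro2a. Trim35 had a region of 3918 bp and Trim26 one of 3777 bp. Trim27 had 2618 bp, Trim65, a ligase for MDA5, 2422 bp, and Trim23, which carries an ARF GTPase domain, 2007 bp. Trim13, a ligase anchored in the endoplasmic reticulum, had 2 narrow single-interval regions of 1658 and 1067 bp, each overlapping a separate listed promoter window. The wider one ended 17 bp outside the gene. Trim21, the cytosolic antibody receptor, had 1266 bp, among the 5 narrowest widest regions of covered members. Trim38, a regulator of TAK1 signalling, was uncovered, with the closest region 12.9 kb from an end. Trim31, a ligase for the adaptor MAVS, was uncovered too, with 40.5 kb.

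The TIF1 cofactors were all covered, with regions that differed in width and in position. Trim28 (KAP1), the corepressor of KRAB zinc-finger proteins, had a single-interval region of 2908 bp over its start. Trim24 had a single-interval region of 1920 bp at its outer start and none at its second listed start. Trim33, a regulator of SMAD signalling, had 1515 bp in 3 intervals. The 7833 bp region assigned to Trim66 had 5 intervals and ended 846 bp short of the gene. It lay at ends of Denn2b and Rpl27a, and the listed Trim66 start was outside it.

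The muscle ligase genes Trim54, Trim55 and Trim63 and the membrane repair gene Trim72 were uncovered, with the closest region 16.1, 13.6, 13.8 and 33.6 kb from an end. Of the neuronal and cytoskeletal genes, Trim46, which organises microtubules in axons, had a 3199 bp region at its 5′ end and 1686 bp at its 3′ end, and the highest number of region midpoints within 50 kb of any member, 13. Both regions were shared with neighbouring genes. Trim32 had 1301 bp, Trim67 789 bp and Trim3 385 bp, and the Trim3 region ended 74 bp outside the gene at an end of Arfip2. Trim2, Trim9, Trim36 and Trim71 were uncovered.

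In the remaining group, Trim17 had a 5070 bp region, shared with H2aw, and Trim39 had 4261 bp at its 5′ end and 1737 bp at its 3′ end. Trim45, Trim37, Trim47, Trim16, Trim59 and Trim68 had widest regions of 3595, 3214, 2550, 2511, 2322 and 1318 bp. Trim44, which lacks the RING domain, had 2 single-interval regions of 675 and 686 bp on either side of its 5′ end. All of these except Trim44 were made of 3 intervals.

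The gene ends of the 34 uncovered members lay between 1.03 and 238 kb from the nearest region, with a median of 30.7 kb. For 10 of them no region midpoint lay within 50 kb of the gene. These were Trim9, Trim29, Trim42, Trim43b, Trim43c, Trim52, Trim58, Trim60, Trim61 and Trim71. The closest region lay 194 kb from an end of the erythroid gene Trim58, 203 kb from the epithelial gene Trim29 and 74.9 kb from the stem cell gene Trim71. For Trim9, Trim42, Trim43b, Trim43c and Trim52 it lay 104, 238, 164, 106 and 183 kb away, and for Trim60 and Trim61 49.7 and 64.2 kb. Uncovered members with a region midpoint within 50 kb included Trim80, Trim43a, Trim62 and Trim75, whose closest regions lay 24.8, 31.5, 43.7 and 32.9 kb from an end. Within 50 kb, 58 of 68 members had a region midpoint (85.3%, against 70.6% of all genes), and 21 had 5 or more (30.9%, against 25.2%). Neighbouring members share such regions, and the median was 2 regions for TRIM genes and 2 for all genes. After Trim46, the highest numbers were 10 at Trim25, Trim47 and Trim65 and 9 at Trim8. Trim47 and Trim65 lie in the same locus.

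A region inside the gene but none at an end was found in 4 members (5.88%, against 6.46% of all genes). The gap from a gene end to the closest region was 1.75 kb at Trim7, 11.1 kb at Trim36, 4.04 kb at Trim2 and 3.14 kb at Trim11. Trim7, which binds glycogenin, had 2, and the one of 1889 bp contained its second listed promoter window entirely. Trim36 had 3, Trim2 had 2 and Trim11 had 1. None of the 5 listed starts of Trim2 was overlapped.

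Members at most 200 kb apart formed 49 loci, of which 29 held a covered member. In 7 loci 2 or more members lay together, 26 genes in all, of which 11 were covered. Lone members were covered in 23 of 42 cases. Beside both counts, which are small, stands the 45.5% of all protein-coding genes, and a difference between them was not tested. The largest locus, on chromosome 7, held 10 genes over 289 kb, Trim6 with the Trim5, Trim12, Trim30 and Trim34 genes (chr7:104218795-104507853). There, Trim34a, Trim12c, Trim30c and Trim30a were covered and Trim6, Trim5, Trim12a, Trim34b, Trim30b and Trim30d were not, so covered and uncovered copies lay interspersed. The closest region lay 8.81 kb from an end of Trim6, 18015 bp from Trim5, 36958 bp from Trim12a, 15.9 kb from Trim34b, 1.34 kb from Trim30b and 4.01 kb from Trim30d. Trim5 is known from primates as a restriction factor that binds retroviral capsids, and Trim12a and Trim12c are mouse relatives of it. Trim30a is known in mice as a regulator of TAB proteins in Toll-like receptor signalling.

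Of the 8 regions in this locus, 7 were made of a single interval, against 35.3% of all regions. The region at the Trim30c start was 3783 bp wide (chr7:104398174-104401956) and that at the outer Trim30a start 2676 bp (chr7:104463330-104466005). A second region of 3035 bp lay inside Trim30a and contained its inner listed promoter window. Trim12c had 1540 bp, shared with Gm38525. Trim34a had 1406 bp in 3 intervals (chr7:104243966-104245371), the only region of the locus with more than 1 interval.

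A second chromosome 7 locus held Trim21 and Trim68, both covered, with 7 olfactory receptor genes between them, of which 0 were covered. Neither had a further region within 50 kb. On chromosome 17, a locus of 73.1 kb held Trim26, Trim15, Trim10, Trim40 and Trim31 (chr17:36837123-36910217). Its only region was the one at the Trim26 start, and the closest region lay 21.0, 29.8 and 41.9 kb from an end of Trim15, Trim10 and Trim40. On chromosome 11, Trim41 was covered and its neighbour Trim7 was not, Trim17 was covered and Trim11 was not, and Trim47 and Trim65 were both covered. The chromosome 8 locus of Trim75, Trim60 and Trim61 had no covered member.

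**Figure D3:**
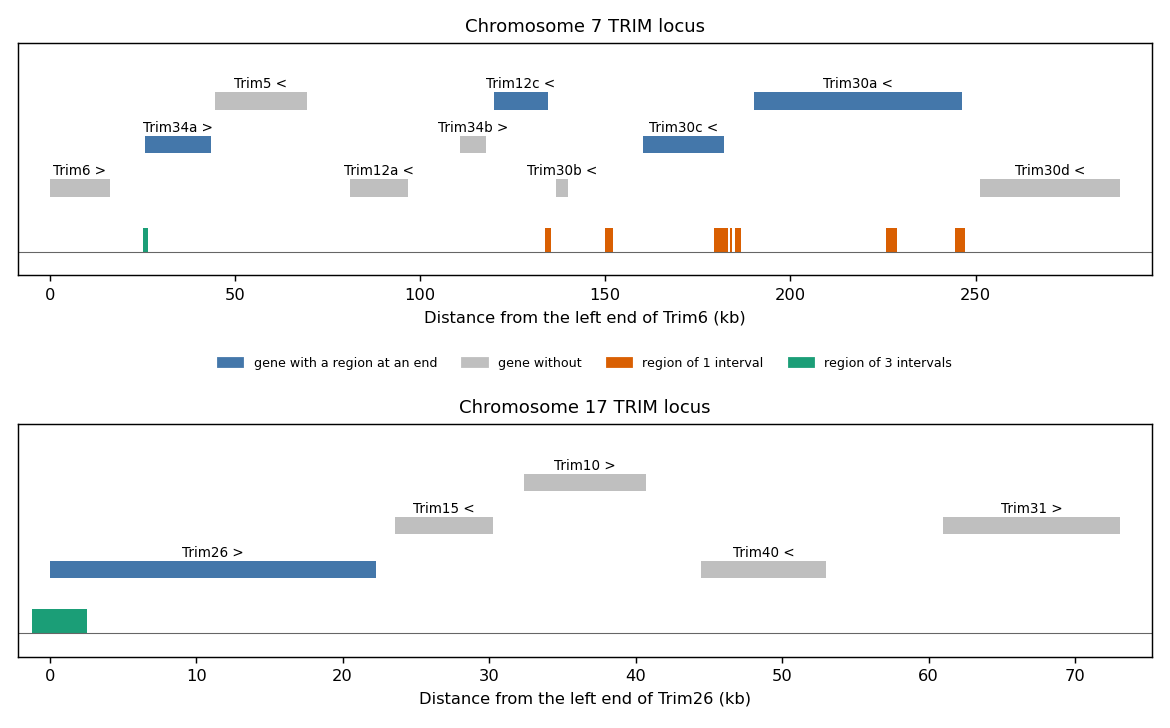
Maps of the TRIM loci on chromosomes 7 and 17, in kb from the left end of the first gene, with covered genes in blue, other genes in grey, arrowheads for the strand, and regions underneath coloured by their number of intervals. On chromosome 7, 7 of 8 regions have a single interval (35.3% of all regions do), and on chromosome 17 the only region lies at Trim26.

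The core of the interferon-stimulated response element, taken as GAAA, any 2 bases and GAAA and searched on both strands, occurred in 10 of the 67 promoter windows listed for TRIM genes, compared with 3.35% of the 21263 windows of all protein-coding genes. Of the 9 members with a match, 5 were covered (Trim12c, Trim21, Trim26, Trim30a and Trim34a) and 4 were not (Trim2, Trim5, Trim12a and Trim30d). Of these 9 members, 6 lie in the 10-gene locus on chromosome 7, and 3 of these 6 were covered. Near copies there, such as Trim5, Trim12a and Trim12c, count separately, so the 10 windows are not independent. Over all genes the element was about as frequent in windows overlapped by a region (3.17%) as in those outside (3.5%). A match is a run of letters in this window and does not show binding.

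The position of the matches relative to the listed start differed between the printed windows. In Trim30a and Trim30d the match was the same, TTTCTTTTTC, and began 36 and 41 bases before the listed start. Trim12c, Trim5 and Trim12a shared TTTCTGTTTC, beginning 29 and 49 bases before the start in Trim12c and Trim5 and 10 bases after it in Trim12a. The sequence around the match was the same in Trim5 and Trim12a, and the listed start lay at a different place in it. Trim34a had TTTCAGTTTC, 10 bases after the start. Trim21 had a pair of overlapping matches, GAAACTGAAAGTGAAA, 13 bases after its start, and Trim26 a pair, TTTCACTTTCCTTTTC, 160 bases before its start.

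Some covered and uncovered copies were closely related in sequence, and others were not. The outer Trim30a window and the Trim30d window were identical in 277 of 305 alignment columns (90.8%), Trim5 and Trim12c in 82.2%, and Trim12a and Trim12c in 72.6%. The uncovered pair Trim5 and Trim12a shared 192 runs of 50 bases but was identical in only 67.1% of columns. Whole windows were aligned and gap columns counted, so a shift between listed starts lowers these shares. The Trim34a and Trim34b windows were identical in 48.8%, Trim30b and Trim30c in 47.0%, and Trim30c and Trim30d in 44.2%. Pairs of windows of this chromosome 7 group that share no run of 50 bases had a median of 46.4%. Libraries were sequenced as single reads of 50 bases, and reads from identical stretches cannot be assigned to a copy. Of the 251 runs of 50 bases in each window, 75 in Trim30a and 75 in Trim30d were found identically in another gene's listed window, 192 each in Trim5 and Trim12a, and 36 in Trim12c. Other windows of the family had 0 in windows at other coordinates. Trim60 and Trim61 are listed with the same window, which counts for each of them among the 67. Among these copies the covered Trim30a held as many shared runs as the uncovered Trim30d, while the covered Trim12c held fewer than the uncovered Trim5 and Trim12a. The part of shared sequence in these differences was not tested, and sequence outside the promoter windows was not used here.

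Of the 67 windows, 31 were overlapped by a region, 26 of them over all 300 bases. The overlap was partial at Trim69 (296 bases), Trim21 (243), the first Trim13 start (234), Trim44 (117) and Trim67 (88). At least 1 listed window was overlapped in 26 of 53 members (49.1%, against 44.7% of all genes with a listed window). Trim7 met this criterion without a region at a gene end, and Trim66 had a region at the gene end without meeting it.

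CpG content was compared between windows in and outside regions, with no test. The ratio of observed to expected CpG had a median of 0.692 in overlapped TRIM windows (quartiles 0.391 and 0.823) and 0.281 in the other TRIM windows (quartiles 0.0917 and 0.444). Over all protein-coding genes the medians were 0.795 and 0.288. At a ratio of 0.6 or more, 19 of 24 TRIM windows were overlapped (79.2%, against 71.3% over all genes), and below 0.6, 12 of 43 (27.9%, against 18.5%). Listed windows of a gene that share bases with one another, such as those of Trim39 and Trim15, count separately. The 12 overlapped windows of low CpG content belonged to Trim7, Trim12c, Trim13, Trim21, Trim30a, Trim30c, Trim34a, Trim39, Trim56 and Trim69, with 2 windows each at Trim30a and Trim69. The covered genes of the chromosome 7 locus had 0 to 3 CpGs in each window. The exceptions on the other side, of high CpG content and without a region, were windows of Trim2, Trim9, Trim62 and Trim71.

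Other motifs were searched in the same windows on both strands, with overlaps between motifs kept. Members are counted by coverage at a gene end, whereas values over all genes are shares of windows. The GC box occurred in 26 of the 67 TRIM windows, and in 46.2% of the windows of all genes. The AP-1 motif occurred in 10 of the 67, and in 6.99% of the windows of all genes. Of the same 67, the STAT motif occurred in 7, the PU.1 motif in 5 and the CRE motif in 2. The GC box GGGCGG occurred in 17 of 26 covered and 7 of 27 uncovered members with a listed window, and over all genes in 66.0% of overlapped windows and 30.9% of the others. The AP-1 motif TGANTCA occurred in 2 covered members (Trim30a and Trim44) and 7 uncovered ones, and over all genes in 4.61% and 8.83% of windows. The STAT motif TTCNNNGAA occurred in 3 covered and 3 uncovered members (7.69% of all windows). The PU.1 motif GAGGAAGT was found in 2 covered and 3 uncovered members (3.13% of all windows), Trim12c among the covered and Trim5 and Trim12a among the uncovered. The match of the covered gene Trim24 lay in its second listed window, outside any region. The CRE motif TGACGTCA was found at Trim26 and at Trim52 (2.23% of all windows). The NF-kB motif was taken as GGGA, then C or A, then TTTCC. Its versions with C and with A occurred in 0 of the 67 windows and in 0.16% and 0.103% of all windows.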

How the data were processed

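MED1 was profiled by ChIP-seq in 4 RAW 264.7 libraries, 2 stimulated with LPS and 2 untreated. Bowtie, SAMtools, MACS2 2.2.6 and mm10 are named in the submitters' processing notes. Nothing used here states how peaks were called, whether a control or pooled libraries were used, or how reads matching several places were treated. The list that the authors deposited gives 53764 intervals with a score of 0 in every line, so it holds no measurement beyond position, and depth is unknown.

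From these positions, abutting intervals were joined into regions on chromosomes 1 to 19, X and Y. Genes and promoter windows were those of RefSeq for GRCm38.p6, which shares its coordinates with mm10 (positions are 1-based). The rule for values took the 10 members with the widest regions, the 5 with the narrowest, the 5 with the most regions within 50 kb, members of shared loci and those whose widest region has 5 or more intervals, and named every uncovered member. The text gives all 68, covered members with a region's width and uncovered ones with the distance to the closest region. The members, lists and motifs were chosen with earlier results of these data known, so only counts are given and no test was run. Limits beside shares are Wilson 95% intervals and cover counting error only. The alternatives were other windows, midpoints, wide regions, merging within 500 bp, unjoined intervals, single-interval regions left out, other neighbourhood and locus distances, and 2 chosen after the data were seen. Joining and overlap were checked on simulated positions. Biopython 1.88, matplotlib 3.10.9, scipy 1.17.1, pandas 2.3.3 and numpy 2.4.6 ran under Python 3.11.15.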

Additional observations from a re-analysis of the deposited data

How the results depend on the processing

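Of 41 recomputed values, 37 stayed within 1.5 times the reported one (for the share of single-interval regions, within its Wilson interval) and 4 did not. The number of TRIM genes with a region at the 5′ end was 17 in place of 26 when only the wider regions (median width upward) were kept, and 17 with single-interval regions left out. The share of single-interval regions at TRIM gene ends was 19.5% when regions within 500 bp were merged, and the median width was 1067 bp for unjoined intervals. In each case the alternative itself removes, merges or splits regions.

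TRIM genes with a region at an end numbered 23 to 37 over the 7 alternatives run. The share was 54.4% against 48.4% of all genes with a window of 2.5 kb, 39.7% against 36.8% by midpoints, 33.8% against 28.3% with the wider regions, and 36.8% against 30.3% without regions at ends of 2 or more genes. Merged and unjoined intervals left both shares at 50.0% and 45.5%. With single-interval regions left out, the order against all genes turned round, with 24 of 68 TRIM genes (35.3%) against 39.2% of all protein-coding genes. The number within 50 kb ranged between 42 with a window of 10 kb and 61 with 100 kb. No paired analysis was possible because the intervals carry no library or replicate. For the same reason no library could be left out, and read depth, which limits what was called, is unknown.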
